A study of Mus musculus with 24 samples.

Results

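The 10 genes described here make, recycle and spend nicotinamide adenine dinucleotide (NAD) and its phosphorylated form NADP in the mouse left ventricle: Nampt, Nmrk1 and Nmrk2, Nmnat1 and Nmnat3, Nadk and Nadk2, Nnt, Nnmt and Sirt3. They are 10 of the 24015 genes of the read count table, found by symbol, and all 10 were among the 13816 genes tested. They were selected on their measured values of transverse aortic constriction (TAC) against sham, so that those values are given as a description. In TAC the aortic arch is narrowed, so that the left ventricle pumps against a raised pressure. Hearts were taken 2, 4, 7 or 21 days after TAC or sham surgery, with 3 libraries in each of the 8 groups and 24 in all. No genotype or drug is named for any group, the labels give no strain, sex or age of the mice, and they do not say whether the 3 libraries of a group are separate animals. Should they be repeat samples of 1 animal, a p-value reflects the spread of those samples and not of animals.

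NAD carries electrons between fuel oxidation and the respiratory chain, and is also consumed by sirtuins, ADP-ribose polymerases and glycohydrolases, which release nicotinamide. Nicotinamide is recycled to nicotinamide mononucleotide by Nampt, while nicotinamide riboside is phosphorylated to the same intermediate by the kinases Nmrk1 and Nmrk2. Nmnat enzymes then complete NAD, NAD kinases convert it to NADP, and Nnmt removes nicotinamide from the cycle by methylation. Heart and skeletal muscle are known for the muscle form of the riboside kinase, Nmrk2.

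Library totals ranged from 10.7 M to 17.6 M counts. Cardiomyocyte markers were high in all groups, and the lymphocyte list reached at most 3.42 CPM in sum. CPM, read counts scaled to a common library total, were adjusted by the trimmed mean of M-values (TMM). Some libraries stood apart. The atrial gene Myl7 was above 30 CPM in sham replicates 2 and 3 of day 2, TAC replicate 1 of day 7 and sham replicate 2 of day 21. In TAC replicate 1 of day 2 the estrogen receptor gene Esr1 reached 2003 CPM before scaling, against at most 10.9 CPM elsewhere, and sham replicate 3 of day 4 held adipocyte transcripts, with Adipoq at 13.4 CPM. Nppa, the atrial natriuretic peptide gene and a known marker of ventricular load, was higher in every TAC library than in any sham library of its day.

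The promoters of Nmrk2 and Nmrk1, the riboside kinase pair that differs most in its values below, and of Nampt, the other entry into salvage, are shown first because they differ in sequence features. Each is the 300-base RefSeq window (GRCm38.p6) from 250 bases before to 50 bases after the gene's start, on the gene's own strand, with matches to the 3 motifs searched in capitals.
Nmrk2 promoter, chr10:81201988-81202287, minus strand: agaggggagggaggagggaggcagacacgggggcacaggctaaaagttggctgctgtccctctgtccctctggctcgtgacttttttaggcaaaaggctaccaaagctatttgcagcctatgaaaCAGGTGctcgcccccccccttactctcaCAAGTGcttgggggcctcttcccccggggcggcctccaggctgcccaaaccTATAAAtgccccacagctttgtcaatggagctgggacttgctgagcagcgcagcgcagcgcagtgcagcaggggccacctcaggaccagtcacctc
Nmrk1 promoter, chr19:18631766-18632065, plus strand: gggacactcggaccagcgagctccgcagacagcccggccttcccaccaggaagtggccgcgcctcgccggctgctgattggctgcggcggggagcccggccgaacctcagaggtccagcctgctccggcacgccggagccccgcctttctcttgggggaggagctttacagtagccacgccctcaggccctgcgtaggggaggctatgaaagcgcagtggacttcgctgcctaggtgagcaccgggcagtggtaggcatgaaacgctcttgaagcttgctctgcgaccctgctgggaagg
Nampt promoter, chr12:32820085-32820384, plus strand: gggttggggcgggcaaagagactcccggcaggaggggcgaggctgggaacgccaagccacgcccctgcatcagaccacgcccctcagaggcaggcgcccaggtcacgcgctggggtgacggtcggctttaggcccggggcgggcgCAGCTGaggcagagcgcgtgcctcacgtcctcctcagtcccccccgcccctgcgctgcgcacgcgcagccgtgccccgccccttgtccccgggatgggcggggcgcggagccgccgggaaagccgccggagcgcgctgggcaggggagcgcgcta
The motifs were the E-box CANNTG, the M-CAT element GGAATG and the TATA box TATAAA, each on both strands. The Nmrk2 window held 2 E-boxes, at -125 and -97 from the gene's start, and a TATA box at -46. The Nmrk1 window held no match to any of the 3 motifs, and the Nampt window held 1 E-box at -105. Over 32851 RefSeq mouse promoters of this length, 72.3% held an E-box, 14.7% an M-CAT element and 13.6% a TATA box. RefSeq promoters were at hand for 7 of the 10 genes, and of their 10 promoter windows only that of Nmrk2 held a TATA box and 0 held an M-CAT element. A match is a description of the letters and not of binding.

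**Figure D1:**
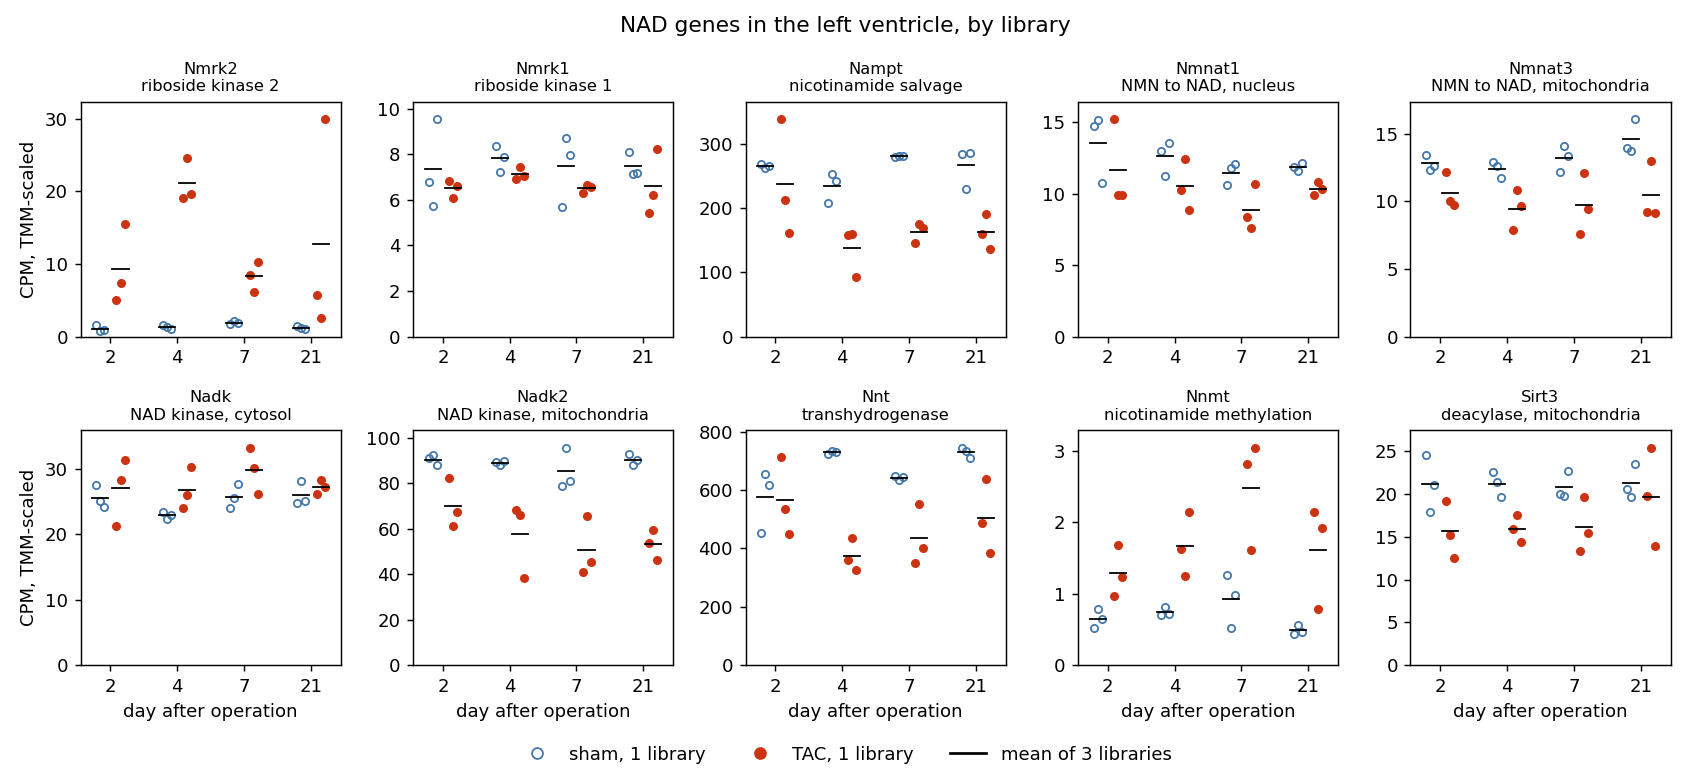
CPM of each of the 10 genes (y axis, TMM-scaled) against the day after surgery (x axis), with open circles for single sham libraries, filled circles for single TAC libraries and a line at the mean of 3. Nmrk2 and Nnmt sit higher after TAC at each day, and Nadk2 and Nmnat3 sit lower at each day without overlap.

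Among the riboside kinases, Nmrk2 was the gene with the largest difference in the count table. At day 2 the sham libraries read 1.58, 0.847 and 0.932 CPM and the TAC libraries 4.99, 7.40 and 15.4 CPM. At day 4 the values were 1.58, 1.30 and 1.04 CPM in sham and 19.1, 24.6 and 19.6 CPM in TAC. All TAC libraries lay above all sham libraries on both days, and at day 4 the TAC libraries were also close to each other. At day 7 sham gave 1.74, 2.16 and 1.95 CPM and TAC 8.48, 6.17 and 10.3 CPM. At day 21 sham gave 1.46, 1.22 and 0.994 CPM and TAC 5.79, 2.53 and 29.9 CPM. The groups again did not overlap, but the TAC libraries of day 21 were far apart, with replicate 3 highest and replicate 2 lowest. The log2 fold changes of TAC over sham ± SE were 3.06 ± 0.64, 4.01 ± 0.64, 2.10 ± 0.62 and 3.39 ± 0.65 at days 2, 4, 7 and 21, from 13 to 25 counts in a sham library. At day 21 the value was 1.75 without TAC replicate 3 and 3.86 without TAC replicate 2.

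RPKM, which are reads scaled to gene length and library size and were deposited by the authors, did not show this difference for Nmrk2. Sham libraries read 19.7, 21.0 and 17.1 RPKM at day 2, 21.4, 20.4 and 17.8 at day 4, 18.8, 23.95 and 20.7 at day 7, and 16.5, 18.9 and 22.4 at day 21. TAC libraries read 23.4, 18.2 and 19.1 RPKM at day 2, 22.8, 23.6 and 16.7 at day 4, 14.6, 16.5 and 15.6 at day 7, and 16.2, 19.7 and 24.1 at day 21. The groups overlapped at days 2, 4 and 21, and at day 7 the TAC libraries were all lower. On the log2(RPKM + 1) scale the differences were 0.06, 0.07, -0.41 and 0.04, each ± 0.15 (SE), in place of a 4.28-fold to 16.1-fold difference in counts. RPKM divided by CPM per kilobase of exon was 19.7 to 45.9 in sham and 1.49 to 14.4 in TAC for Nmrk2. For the other 9 genes this ratio lay between 0.770 and 4.15 in all 24 libraries. Among 11986 genes with at least 10 counts in every library, Nmrk2 had the lowest shift of the log2 ratio of RPKM to CPM from sham to TAC, at -2.99, and 2 genes (0.0167%) shifted by more than 1 in either direction.

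In the GENCODE M21 annotation Nmrk2 shares 270 exon bases with Atcayos, an antisense transcript on the other strand. The sources used here do not state whether the libraries or the counting kept the strand, so that reads of the pair cannot be told apart. In the count table Atcayos had log2 fold changes of -0.04 ± 0.29, -0.70 ± 0.29, -0.33 ± 0.29 and 0.03 ± 0.29 at days 2, 4, 7 and 21. The part of this overlap in the disagreement of the tables was not tested. Statements on Nmrk2 below hold for the count table.

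**Figure D2:**
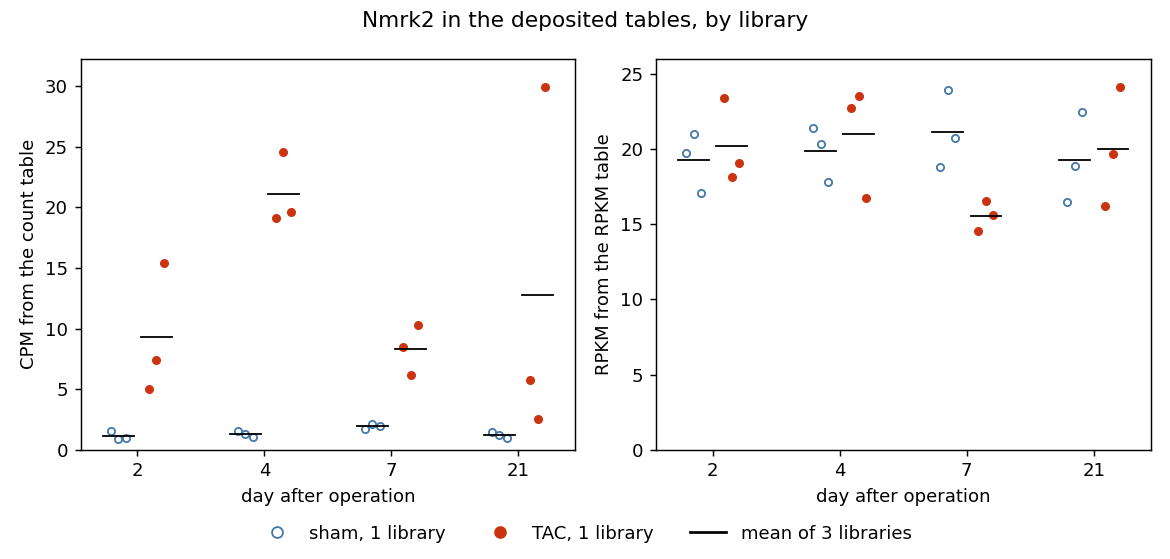
Nmrk2 in the 2 deposited tables, with CPM from the counts in the left panel and RPKM in the right panel (y axes) against the day after surgery (x axes). Points are single libraries, open for sham and filled for TAC, and lines are means of 3. The left panel shows TAC above sham at each day, while on the right the groups overlap at days 2, 4 and 21 and TAC is lower at day 7.

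Nmrk1, the riboside kinase found in most tissues, differed little between the groups. It read 5.68 to 9.54 CPM over the 12 sham libraries and 5.43 to 8.25 CPM over the 12 TAC libraries, and the groups overlapped at each day. Its log2 fold changes were -0.17, -0.13, -0.20 and -0.17, each ± 0.18 (SE). Per kilobase of exon, the counts of Nmrk2 were 0.108 to 0.338 times those of Nmrk1 in the sham libraries and 0.452 to 4.01 times in the TAC libraries. Nmrk2 exceeded Nmrk1 in 0 of 12 sham and 10 of 12 TAC libraries, the exceptions being TAC replicate 1 of day 2 and replicate 2 of day 21. In RPKM the ratio was 2.43 to 3.66 in sham and 2.35 to 3.89 in TAC, above 1 in all 24 libraries.

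Nampt, the rate-limiting enzyme of nicotinamide salvage, was lower after TAC at days 4, 7 and 21. It was called at days 4 and 7 but not at day 21 (edgeR adjusted p = 0.0874). Its effect was not found to differ over the days (edgeR's F test, adjusted p = 0.512). At day 2 it read 268, 262 and 265 CPM in sham and 338, 213 and 161 CPM in TAC. The TAC libraries of day 2 lay on both sides of the sham values, with replicate 1 above and replicates 2 and 3 below. At day 4 it read 208, 253 and 243 CPM in sham and 158, 160.2 and 93.3 CPM in TAC. At day 7 it read 279.7, 281 and 280.3 CPM in sham and 146, 176 and 169 CPM in TAC. At day 21 it read 285, 230.4 and 285 CPM in sham and 160.3, 191 and 136 CPM in TAC. All TAC libraries lay below all sham libraries on these 3 days. The log2 fold changes were -0.16 ± 0.20, -0.78 ± 0.21, -0.78 ± 0.21 and -0.71 ± 0.21 at days 2, 4, 7 and 21, and in RPKM they were -0.17, -0.81, -0.70 and -0.70, each ± 0.21. In bulk tissue, fewer cells of a type and less RNA per cell cannot be told apart. Per kilobase of exon, Nmrk2 counts were 0.00791 to 0.0188 times those of Nampt in sham and 0.0323 to 0.536 times in TAC.

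Nmnat1 and Nmnat3 make NAD from the mononucleotide, Nmnat1 in the nucleus and Nmnat3 with a mitochondrial form. Nmnat3 went from 12.8 ± 0.566 to 10.6 ± 1.33 CPM at day 2, from 12.4 ± 0.620 to 9.45 ± 1.502 at day 4, from 13.2 ± 0.974 to 9.70 ± 2.28 at day 7 and from 14.6 ± 1.30 to 10.4 ± 2.22 at day 21 (mean ± SD, n = 3). It was lower in all TAC libraries than in any sham library of the same day at all 4 days. The gap was narrow at day 7, with TAC replicate 2 at 12.10 and sham replicate 1 at 12.16 CPM. Nmnat3 was called only at day 7 (edgeR adjusted p = 0.0489). That call held in 1 of the 6 fits without a library of the day. Its log2 fold changes were -0.27, -0.39, -0.45 and -0.48, each ± 0.16. Nmnat1 went from 13.5 ± 2.42 to 11.7 ± 3.06 CPM at day 2, from 12.6 ± 1.23 to 10.5 ± 1.83 at day 4, from 11.5 ± 0.786 to 8.89 ± 1.61 at day 7 and from 11.9 ± 0.298 to 10.3 ± 0.464 at day 21 (mean ± SD, n = 3). The Nmnat1 groups were apart only at day 21, where TAC was lower, and its log2 fold changes were -0.23, -0.27, -0.36 and -0.20, each ± 0.17. Nmnat2, the third enzyme of this kind and mostly neuronal, had mean levels under 1 CPM in all 8 groups.

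Of the NAD kinases, Nadk2 was lower after TAC and Nadk was called at no day. Nadk2, the mitochondrial kinase, read 91.1, 92.3 and 87.9 CPM in sham and 82.2, 61.1 and 67.4 CPM in TAC at day 2. It read 89.5, 88.1 and 89.6 against 68.4, 66.1 and 38.3 CPM at day 4, and 78.8, 95.6 and 81.2 against 41.0, 65.6 and 45.4 CPM at day 7. At day 21 it read 93.1, 88.2 and 90.1 CPM in sham and 53.9, 59.4 and 46.4 CPM in TAC. By counts TAC was below sham without overlap on each day, and the 12 sham libraries stayed between 78.8 and 95.6 CPM. In RPKM the groups overlapped at day 7, where TAC replicate 2 read 20.9 and sham replicate 3 read 20.7. Its log2 fold changes were -0.37 ± 0.17, -0.63 ± 0.17, -0.75 ± 0.18 and -0.77 ± 0.18. Nadk, the cytosolic kinase, read 22.4 to 28.1 CPM in sham and 21.3 to 33.3 CPM in TAC, with log2 fold changes of 0.08, 0.22, 0.21 and 0.07, each ± 0.12. TAC was above sham for Nadk without overlap only at day 4.

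Nnt, the transhydrogenase of the inner mitochondrial membrane that makes NADPH from NADH, had the highest level of the 10 per kilobase. It read 451, 655 and 618 CPM in sham and 713, 536 and 450.5 CPM in TAC at day 2, where the groups overlapped. At day 4 it read 724, 732 and 731 CPM in sham and 361, 434 and 327 CPM in TAC, so that TAC stood near 0.513 of sham. At day 7 it read 649, 634 and 645 against 351, 554 and 401 CPM, and at day 21 745, 733 and 708 against 487, 638 and 383 CPM. The groups were apart on these 3 days, with TAC lower. The log2 fold changes were -0.02 ± 0.18, -0.96 ± 0.19, -0.56 ± 0.19 and -0.54 ± 0.19 at days 2, 4, 7 and 21. The mouse substrain C57BL/6J is known to carry a deletion within Nnt, and the strain used here is not given, so that a whole-gene count does not tell intact from deleted transcripts.

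Nnmt, which methylates nicotinamide, was the other gene higher after TAC, from a low level of 6 to 48 counts per library. It read 0.527, 0.787 and 0.645 CPM in sham and 0.965, 1.68 and 1.24 CPM in TAC at day 2, and 0.703, 0.812 and 0.723 against 1.63, 1.25 and 2.14 CPM at day 4. At day 7 it read 1.26, 0.519 and 0.976 CPM in sham and 2.81, 1.60 and 3.04 CPM in TAC, and at day 21 0.437, 0.564 and 0.459 against 2.14, 0.785 and 1.92 CPM. The groups did not overlap at any day, and replicate 2 was the lowest TAC library at days 4, 7 and 21. Fitted log2 fold changes were 0.98 ± 0.39, 1.16 ± 0.39, 1.43 ± 0.37 and 1.73 ± 0.42. Nnmt lay above the 0.752 CPM of the filter on low counts in 12 of 12 TAC and 4 of 12 sham libraries, where 3 libraries were enough to be tested. The other 9 genes lay above it in all 24 libraries. In RPKM, TAC was likewise above sham without overlap for Nnmt at each day.

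Sirt3, the NAD-dependent deacylase of mitochondria, went from 21.2 ± 3.33 to 15.7 ± 3.37 CPM at day 2, from 21.2 ± 1.47 to 15.9 ± 1.57 at day 4, from 20.8 ± 1.61 to 16.1 ± 3.20 at day 7 and from 21.2 ± 2.01 to 19.7 ± 5.73 at day 21. Its groups were apart at days 4 and 7, narrowly so at day 7, with TAC replicate 2 at 19.64 and sham replicate 2 at 19.71 CPM. Sirt3 was called at no day (edgeR adjusted p of 0.179, 0.104, 0.149 and 0.791 at days 2, 4, 7 and 21). On the log2 scale the differences were -0.44, -0.41, -0.37 and -0.11, each ± 0.18. Sirt3 shares 152 exon bases with Psmd13 and 61 with Ric8a on the other strand, so that without strand some of its reads may be theirs.

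**Figure D3:**
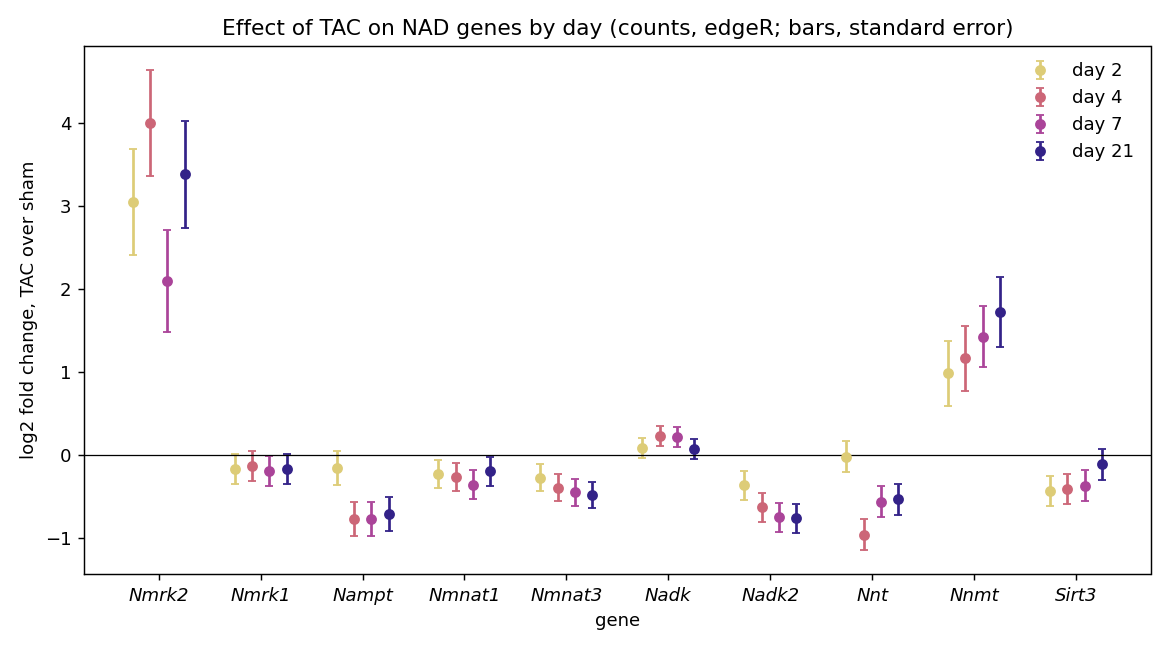
Log2 fold change of TAC over sham (y axis) for the 10 genes (x axis) at days 2, 4, 7 and 21, from counts with edgeR, with bars of 1 standard error. Nmrk2 and Nnmt lie above 0 at each day, Nadk2 lies below at each day, and Nampt and Nnt lie near 0 at day 2 and below afterwards.

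By edgeR's quasi-likelihood test adjusted over all genes at 0.05, 1 of the 10 genes was called at day 2, Nmrk2 (higher), where 3.73% of tested genes were called higher and 0.854% lower. At day 4 the called genes were 2 higher (Nmrk2, Nnmt) and 3 lower (Nadk2, Nampt, Nnt), beside 14.4% and 10.1% of tested genes. At day 7 they were 2 higher (Nmrk2, Nnmt) and 4 lower (Nadk2, Nampt, Nmnat3, Nnt), beside 13.1% and 10.02%. At day 21 they were 2 higher (Nmrk2, Nnmt) and 1 lower (Nadk2), beside 0.622% and 0.470%. Groups did not overlap for 4, 8, 7 and 7 of the 10 at days 2, 4, 7 and 21, beside 22.4%, 41.1%, 39.9% and 22.4% of tested genes. Since the 10 were chosen by these contrasts, nothing is read from these shares. By edgeR's F test the effect of TAC was not found to differ over the days for any of the 10. Past the threshold were 0, beside 0.369% of tested genes, and the smallest adjusted p was 0.276 for Nnt. At an unadjusted p under 0.05 was 1 of the 10, beside 1794 of the 13816 tested genes. The median log2 fold change of the 10 was -0.17, -0.33, -0.37 and -0.18, beside -0.002, -0.01, 0.003 and 0.01 over all tested genes.

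In a further fit the 4 libraries above 30 CPM of Myl7 were left out, a choice made once the data had been seen. Calls among the 10 then numbered 4, 0 and 0 at days 4, 7 and 21. That leaves 1 sham library at day 2, assumed to vary like the other groups, so that no count is given there. The TAC group of day 7 and the sham group of day 21 each lost a library as well. Without these 4 libraries the log2 fold change at day 7 was 2.09 for Nmrk2 and -0.62 for Nadk2. The share of all tested genes called was not computed for this fit or for those without single libraries. Fewer calls among the 10 can therefore not be set against those of other genes. Without single libraries, the calls numbered 0 without sham replicate 2, sham replicate 3 or TAC replicate 3 of day 2 and 2 without TAC replicate 1 of that day. They numbered 2 without TAC replicate 3 of day 4, and 4 to 6 without another library of that day. At day 7 they numbered 3 without sham replicates 1 or 3 or TAC replicate 3, 2 without sham replicate 2 or TAC replicate 1, and 6 without TAC replicate 2. At day 21 they numbered 0 without any 1 of the sham libraries or TAC replicate 3, 1 without TAC replicate 1 and 6 without TAC replicate 2. Nmrk2 and Nnt at day 4 and Nadk2 at day 7 were called whichever of that day's 6 libraries was left out.

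Within a day, the same TAC library often had the highest value for the lowered genes. Over the average of the 4 days 6 of the 10 were called lower, beside 21.4% of tested genes, and 2 higher, beside 24.4%. Those called lower are Nadk2, Nampt, Nmnat1, Nmnat3, Nnt and Sirt3. Since the 10 were chosen by TAC against sham, nothing is read from these shares. At day 2 all 6 were highest in TAC replicate 1 and at day 21 all 6 in TAC replicate 2. At day 4, 5 of the 6 were highest in TAC replicate 2, Nadk2 being the exception. At day 7 it was again 5 of 6 in TAC replicate 2, Nmnat1 being the exception. These 4 libraries were picked as the TAC library with the lowest Nppa of each day, at 754, 1812, 853 and 678 CPM. That of day 2 is the library with high Esr1. The 4 also had the lowest Nnmt of the TAC libraries of their day. Nmrk2 was lowest there at days 2, 7 and 21, but not at day 4. These are orders within groups of 3 and carry no test. How many other lowered genes were highest in the same libraries was not computed, so the order is not particular to these genes.

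Cell type markers moved with TAC as well. Of the 8 cardiomyocyte markers, 4 fell at day 4 and 3 at day 7, with median log2 fold changes of -0.50 and -0.48, and 0 passed at days 2 and 21 (medians -0.16 and -0.17, 1 gene at an unadjusted p under 0.05 on each day, edgeR). Their summed level was 91516 to 104659 CPM in sham and 61483 to 100702 CPM in TAC. Of the 8 fibroblast markers, 5 rose at day 4 and 6 at day 7, and their sum was 1250 to 1811 CPM in sham and 1275 to 10225 CPM in TAC. All 8 macrophage markers rose at days 4 and 7, with sums of 168 to 252 CPM in sham and 195 to 564 CPM in TAC. The part of these shifts in the values of the NAD genes was not tested.

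Sham hearts give a comparison that did not choose the genes. Over the 4 sham days, 0 of the 10 passed edgeR's F test, beside 0.680% of tested genes. An unadjusted p under 0.05 was found for 0 of the 10, beside 1302 of the 13816 tested genes. DESeq2 and limma voom also called 0. The smallest adjusted p was 0.794 for Nnt (edgeR), which read 451 to 655 CPM in sham hearts of day 2 and 724 to 732 CPM in those of day 4. The largest fitted difference of a later sham day from sham day 2 was 0.79 (log2) for Nmrk2. This gene read 0.847 to 2.16 CPM over all sham libraries. Later sham days were not fitted against each other. Nnmt read 0.519 to 1.26 CPM in sham hearts of day 7 and 0.437 to 0.564 CPM in those of day 21.

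In sham hearts the order of the levels per kilobase (RPKM, median of 12 libraries) was Nnt at 197, Nampt at 47.7, Nadk2 at 23.0, Nmrk2 at 20.0, Sirt3 at 17.6, Nmnat1 at 17.1, Nadk at 8.28, Nmrk1 at 6.60, Nmnat3 at 6.56 and Nnmt at 0.829. Neighbours overlapped in range from Nadk2 to Nmnat1, and Nmrk1 overlapped Nmnat3. Nnt (131 to 214), Nampt (41.3 to 55.1) and Nnmt (0.549 to 1.59) stood clear of their neighbours, and Nadk (7.40 to 9.25) lay just above Nmrk1 (5.45 to 7.38) but overlapped Nmnat3 (5.95 to 8.08). By counts per kilobase of exon, Nmrk2 stood ninth instead, with a median of 0.743 CPM per kilobase, next to Nnmt at 0.646. Nmnat1 also stood lower by counts, at 4.18 CPM per kilobase, below Nadk at 7.38 and Nmnat3 at 5.29.

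Genes that followed the same pattern over the 24 libraries were sought by Pearson's r of log2 CPM. For Nmrk2 the 5 highest were Fxyd5 (0.94), Enah (0.92), Nppa (0.92), Ctsz (0.92) and Pfkp (0.92). For Nampt they were Ppip5k2 (0.97), Cobll1 (0.94), Cpeb3 (0.94), Ppl (0.93) and Thrb (0.93). For Nnmt they were Lamc1 (0.88), Pcolce (0.88), Col8a1 (0.88), Axl (0.88) and Grb10 (0.88), among them genes of matrix proteins and collagen processing. The points share libraries, depth and the difference between TAC and sham, so that these r are descriptions and carry no p.

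The rest of NAD metabolism was read from 8 lists with 67 genes outside the 10, of which 57 were tested. At day 4, 20 of the 57 passed edgeR's test, 7 higher and 13 lower, and at day 7 16 passed, 1 higher and 15 lower, beside the shares of all genes given above. At days 2 and 21, 0 of the 57 passed, and 11 had an unadjusted p under 0.05 by edgeR on each day. Of all 13816 tested genes, 2764 and 2400 had such a p at these days. Among the 57, DESeq2 called 1 and 0 and limma voom 0 and 0. Averaged over the days 34 passed, 11 higher and 23 lower, beside 24.4% and 21.4% of tested genes. The effect of TAC was not found to differ over the days for any of the 57 by edgeR's F test. Past the threshold were 0, beside 0.369% of tested genes, and DESeq2 called 1. At an unadjusted p under 0.05 by edgeR were 7 of the 57, beside 1794 of the 13816 tested genes. The median log2 fold change of the 57 was -0.13 at day 4 and -0.09 at day 7, beside -0.01 and 0.003 over all tested genes.

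**Figure D4:**
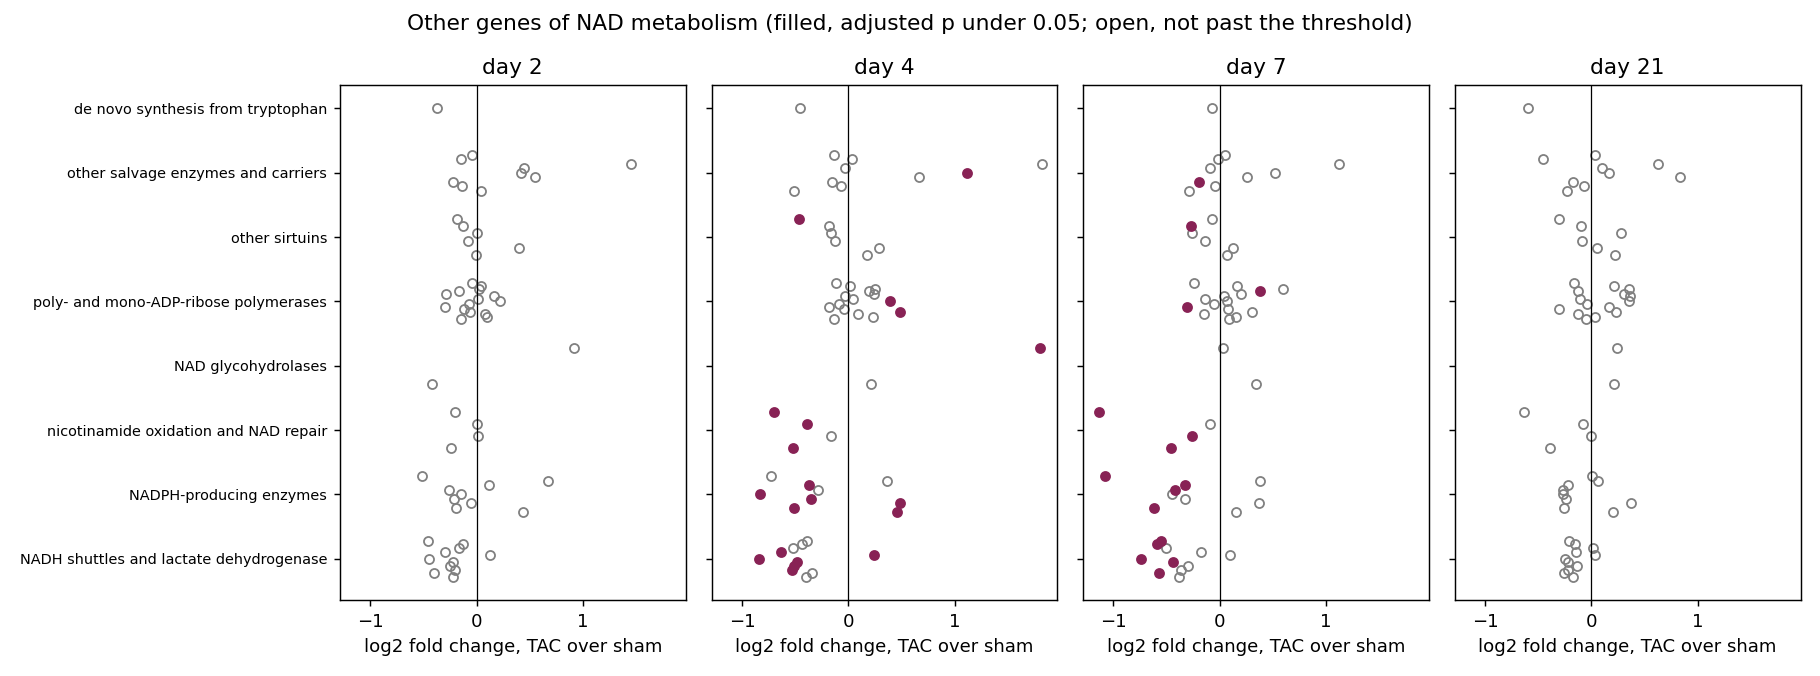
Log2 fold change of TAC over sham (x axis) for the 57 tested genes, in rows by list, at each day (panels), filled where the edgeR adjusted p is under 0.05. Filled points appear only at days 4 and 7, and those of the shuttle and NADPH lists lie mostly below 0.

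In the list of NADH shuttles and lactate dehydrogenase, 5 of 11 fell and 1 rose at day 4, and 5 fell at day 7, with medians of -0.49 and -0.44. Ldhb, the heart form of lactate dehydrogenase, fell from 970.4 ± 75.1 to 544 ± 125 CPM at day 4 (log2 fold change -0.84 ± 0.22, edgeR adjusted p = 0.0107) and had -0.74 ± 0.22 at day 7 (adjusted p = 0.0231). Ldha, the muscle and glycolytic form, rose from 373 ± 15.8 to 441 ± 23.99 CPM at day 4 (0.24 ± 0.09, adjusted p = 0.0421 by edgeR). Mdh1 of the malate-aspartate shuttle fell at both days (-0.49 ± 0.15 and -0.44 ± 0.15). Slc25a11 of the same shuttle fell at day 4 (-0.53 ± 0.17) and had -0.37 at day 7, short of the threshold. Got1, Got2 and Slc25a12, also of this shuttle, fell at day 7 (-0.55 ± 0.16, -0.59 ± 0.17 and -0.58 ± 0.16). At day 4 they had -0.38, -0.44 and -0.34, short of the threshold. Gpd2, the mitochondrial glycerol-phosphate dehydrogenase, fell at day 4 (-0.64 ± 0.19), but its value was -0.18 without sham replicate 3, the library with adipocyte transcripts.

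Among the 9 genes listed as NADPH-producing enzymes, 4 fell and 2 rose at day 4 and 4 fell at day 7, with medians of -0.35 and -0.33. Idh2, the mitochondrial isocitrate dehydrogenase, fell from 1213 ± 57.3 to 681 ± 145 CPM at day 4 (-0.83 ± 0.20, edgeR adjusted p = 0.00583). Me3, a mitochondrial malic enzyme, fell at day 4 (-0.51 ± 0.14) and day 7 (-0.62 ± 0.14, from 80.5 ± 5.36 to 52.6 ± 11.0 CPM), and H6pd of the endoplasmic reticulum at both days (-0.37 ± 0.09 and -0.33 ± 0.09). Idh1, the cytosolic isocitrate dehydrogenase, and the folate enzyme Aldh1l1 fell at day 7 (-0.42 ± 0.12 and -1.08 ± 0.36). Pgd of the pentose phosphate pathway and Me2 rose at day 4 (0.46 ± 0.15 and 0.49 ± 0.17). Me2 is in this list although it is a malic enzyme that mainly uses NAD.

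Of the 4 genes of nicotinamide oxidation and NAD repair, 3 fell at day 4 and 3 at day 7, with medians of -0.45 and -0.36. Aox1, an aldehyde oxidase that oxidises nicotinamide products, fell from 27.2 ± 4.68 to 16.8 ± 5.26 CPM at day 4 (-0.70 ± 0.21, edgeR adjusted p = 0.0173) and from 44.4 ± 5.66 to 20.1 ± 3.74 CPM at day 7 (-1.14 ± 0.20, adjusted p = 0.000799 by edgeR). Nudt12, a decapping hydrolase of NAD and NADH, fell at both days (-0.52 ± 0.16 and -0.46 ± 0.16). Apoa1bp, which encodes the NAD(P)H-hydrate epimerase, fell at day 4 (-0.39 ± 0.13) and Carkd, the dehydratase of the same repair, at day 7 (-0.27 ± 0.09).

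The consumers of NAD were read in separate lists. Of all tested genes, 14.4% were called higher and 10.1% lower at day 4, and 13.1% and 10.02% at day 7. The lists are short, so that nothing is read from their counts beside these shares. Of 6 other sirtuins, Sirt1 of the nucleus fell at day 4 (15.03 ± 2.03 to 10.9 ± 1.45 CPM, -0.46 ± 0.13) and Sirt2 at day 7 (-0.27 ± 0.09), with list medians of -0.15 and -0.11. Of 15 ADP-ribose polymerases, Parp3 and Parp9 rose at day 4 (0.39 ± 0.11 and 0.49 ± 0.13), and at day 7 Parp12 rose (0.38 ± 0.12) and Parp6 fell (-0.31 ± 0.10), with medians of 0.05 and 0.08. Parp1, the main polymerase of the DNA damage response, had -0.04, -0.11, -0.24 and -0.17, each with an SE of 0.12 to 0.13, and did not pass at any day. Of the 2 glycohydrolases tested, Bst1 rose at day 4 from 0.717 ± 0.224 to 2.53 ± 0.492 CPM (1.81 ± 0.50, edgeR adjusted p = 0.0121). Cd38, the main NAD glycohydrolase of many tissues, had -0.42, 0.21, 0.34 and 0.21, each ± 0.15, and did not pass at any day.

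In the other salvage enzymes and carriers, Pnp, which splits nicotinamide riboside and purine nucleosides, rose at day 4 from 8.76 ± 1.13 to 19.0 ± 3.03 CPM (1.12 ± 0.22, edgeR adjusted p = 0.00145), and a close paralog, Pnp2, may share some of its reads. Slc25a51, the mitochondrial NAD carrier, fell at day 7 (-0.20 ± 0.07, adjusted p = 0.0496 by edgeR). The list medians were -0.03 and -0.02 at days 4 and 7, with 1 of 9 past the test on each day. Naprt1, which starts salvage from nicotinic acid, did not pass at any day (-0.14, 0.03, -0.02 and -0.46, each with an SE of 0.25 to 0.26). Of the 9 genes of synthesis from tryptophan only Afmid was tested. It had -0.38, -0.46, -0.07 and -0.59 at days 2, 4, 7 and 21, each with an SE of 0.19 to 0.20. Afmid was called at no single day, with the smallest adjusted p at day 4 (0.0873 by edgeR). Over the average of the 4 days it was called lower (-0.37 ± 0.10, edgeR adjusted p = 0.00357), beside 21.4% of tested genes. Qprt, the enzyme that joins that route to the NAD pathway, had 0 to 3 counts per library.

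Many calls of pathway genes were lost when 1 library was left out. Without single libraries of day 4 their number was 16, 12 and 11 (sham replicates 1, 2 and 3) and 14, 20 and 5 (TAC replicates 1, 2 and 3), and at day 7 it was 11, 8 and 3 (sham) and 4, 19 and 4 (TAC). H6pd, Idh2 and Pnp at day 4 and Aox1 and Me3 at day 7 were called whichever library of the day was left out, while the other 17 and 14 lost their call in 1 or more of these fits. Some lost calls kept their size: Nudt12 at day 7 had -0.50 to -0.43 and Me2 at day 4 had 0.41 to 0.56 over these fits, although neither was called in any of the 6. Without the 4 libraries with over 30 CPM of Myl7 the counts were 19 at day 4 and 2 at day 7. The share of all tested genes called in these fits was not computed.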

How the data were processed

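Per the labels' protocols, ventricles were frozen in liquid nitrogen, and libraries of their total RNA were made with NuGEN Ovation reagents and run on a NextSeq500. The authors deposited raw read counts per gene symbol (24015 genes). They also deposited RPKM per gene symbol (23951 genes). The submitters' processing notes name TopHat, DESeq and the build hg19, with no versions. A human build does not match mouse symbols. The mouse build, gene annotation, read counter and strand setting were not given in the sources used here. Counts were tested as deposited and RPKM served as an alternative, with limma 3.58.1 on log2(RPKM + 1).

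In R 4.3.3 with edgeR 4.0.16, filterByExpr on the 8 groups kept 13816 genes, libraries of 10.7 to 17.6 M reads were scaled by TMM, and a quasi-likelihood model with 8 group means and 16 residual degrees of freedom was fitted. The contrasts were TAC minus sham for each day and for the mean of the 4 days, and F tests over the days of sham hearts and of the TAC effect. Tests were two-sided with Benjamini-Hochberg adjustment over all genes at 0.05. Replicates differed beyond counting noise, with a chi-square of 3.52 to 58.9 per degree of freedom.

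The members and lists were chosen with earlier results of these data known. The text names all 10 members, from each of 8 pathway lists the genes past the test at a day (up to 4 with the smallest p, and any in the other direction), and Cd38, Sirt1, Parp1, Qprt, Naprt1, Slc25a51 and Aox1 at any value. Likeness used log2 CPM with a prior count of 2 and genes averaging 3 or more on that scale. Exon lengths and overlaps are from GENCODE M21 and promoters from RefSeq (GRCm38.p6). The edgeR steps were tested on simulated data. Alternatives were RLE scaling, no filter, DESeq2 1.42.0, limma voom, the replicate block, libraries of a day alone, RPKM and leaving out libraries.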

Additional observations from a re-analysis of the deposited data

Results flagged for a closer look

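Some genes of NAD use lay on opposite sides of sham at 2 days without overlap of the libraries. Cd38, Parp12 and Parp14 were picked for this pattern from their measured values. The libraries did not overlap, in either direction, for 22.4%, 39.9% and 22.4% of tested genes at days 2, 7 and 21. The share of all tested genes on opposite sides at 2 days was not computed, so that nothing is read from the pattern. Cd38 was lower after TAC at day 2, with a log2 fold change of -0.42 (24.4 ± 0.298 to 18.2 ± 1.98 CPM, mean ± SD of n = 3), and higher at day 7, with 0.34 (19.3 ± 1.19 to 24.4 ± 2.80 CPM). Parp12, a mono-ADP-ribose polymerase, was lower at day 2, with -0.16, and higher at day 7, with 0.38. Parp14, another enzyme of this family, was lower at day 2, with -0.29, and higher at day 21, with 0.31. The difference between these pairs of days was not tested by itself. By edgeR's F test over all 4 days the adjusted p-values were 0.225 for Cd38, 0.244 for Parp12 and 0.300 for Parp14, none past the threshold. In sham hearts Cd38 was 24.4 ± 0.298 CPM at day 2 and 18.2 ± 4.66 CPM at day 4. The summed level of 7 endothelial markers was 1134 to 1215 CPM in sham and 934 to 962 CPM in TAC at day 2. It was 1028 to 1077 against 1308 to 1485 CPM at day 7 and 1086 to 1178 against 1208 to 1300 CPM at day 21. The markers did not all move alike. At day 2, 3 were called lower and 0 higher, at day 7 2 higher and 1 lower, and at day 21 0 were called (edgeR). Their median log2 fold changes were -0.31, 0.15 and 0.18 at days 2, 7 and 21. The part of these shifts in the values of Cd38, Parp12 and Parp14 was not tested.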

How the results depend on the processing

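For single genes, values were compared under the alternatives other than leaving out 1 library. Of these, 989 kept their side of the threshold and stayed within the spread between replicates. Another 102 were no longer past the threshold, 14 came past it and 22 moved by more than that spread. A further 3 reversed, that is, changed sign while past the threshold in 1 or both fits. Changes of sign between values short of the threshold were not counted as reversed. An example is Sirt1 at day 7, with -0.08 by counts and 0.02 for log2(RPKM + 1). Nnt at day 2 moved from -0.02 to 0.33 without the libraries over 30 CPM of Myl7, which leaves 1 sham library at that day, the one with the lowest Nnt. The 3 that reversed are Nmrk2 at day 7, with -0.41 for log2(RPKM + 1), -0.43 for log2(RPKM + 0.1) and -0.41 for genes with a mean RPKM of at least 1. Without 1 library at a time, 459 values stayed, 150 were no longer past the threshold and 9 came past it. The number of the 10 genes called at day 2 was 0 with limma voom, with the libraries of the day alone and in the 3 RPKM settings. It was 4 with Myl7 as a covariate. At day 4 it was 3 in the 3 RPKM settings, and at day 7 0 without the Myl7 libraries. At day 21 it was 1 with limma voom or the libraries of the day alone, 0 in the 3 RPKM settings and without the Myl7 libraries, and 6 with Myl7 as a covariate. The number of pathway genes called at day 2 was 1 with DESeq2 and 5 with the covariate. At day 7 it was 10 without the filter, 10 with the libraries of the day alone and 2 without the Myl7 libraries. At day 21 it was 4 with the covariate, and for the effect over days 1 with DESeq2. Without 1 library at a time the 10 genes gave 0 to 2, 2 to 6, 2 to 6 and 0 to 6 calls at days 2, 4, 7 and 21 and 0 over the sham days, and the pathway genes 0 to 8, 5 to 20, 3 to 19 and 0 to 3 calls and 0 over days. The cause was not tested, and the share of all tested genes called was not computed for these alternatives.

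With the replicate block the 10 genes gave 1, 5, 6 and 2 calls and the pathway genes 0, 21, 16 and 0 at days 2, 4, 7 and 21. Sham and TAC libraries of the same day and number correlated at -0.15 to 0.14 in their deviations from the group means. Libraries of the same number were not compared across days, so that whether the number stands for a batch is not known. The block ended the calls of Nnmt at day 21, Me1 at day 4 and Slc25a51 at day 7. Among the 10 genes the lowest counts in a library were 6 for Nnmt and 13 for Nmrk2.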
